A study of Homo sapiens with 8 samples.

Results

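DAZL, MAEL, GTSF1, HORMAD1, BRDT and DMRT1 are genes that normally work in germ cells, and their transcripts were followed here in 2 T cell lines treated with epigenetic inhibitors. The genes were taken by symbol: each of the 6 had exactly 1 probe set, so the group holds 6 of the 21448 transcript probe sets in the deposited table (17687 named genes). Both lines carry HTLV-1, the virus behind adult T cell leukaemia: MT-1 came from leukaemic cells and MT-2 from T cells that the virus transformed. MT-1 cells were left untreated or received 500 nM OR21, a DNA demethylating agent, 2500 nM EPZ-6438, or both. EPZ-6438, also named tazemetostat, blocks EZH2, the enzyme that methylates histone H3 for Polycomb silencing. MT-2 cells were left untreated or received 100 nM OR21, 500 nM EPZ-6438, or both. Cells were exposed for 96 h, with compound given at seeding and once more at 48 h, in RPMI-1640 medium with fetal bovine serum. The sources used here do not say whether control cells received a vehicle. Each of the 8 groups had 1 array, so a difference within a line has no replicate error, and line and dose cannot be told apart.

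Germline genes are kept silent in somatic cells, many of them by methylation of CG dinucleotides at their promoters and by repressor complexes such as PRC1.6, a variant Polycomb complex that carries the DNA-binding proteins MGA and E2F6. DAZL binds RNA and controls translation in germ cells. MAEL and GTSF1 belong to the piRNA pathway, in which small RNAs and PIWI proteins silence transposons. HORMAD1 sits on meiotic chromosome axes and helps homologous chromosomes pair. BRDT is the testis member of the BET family, which reads acetylated histones, and DMRT1 is a DM-domain transcription factor that maintains the male gonad. No methylation or chromatin measurement was part of these arrays.

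Values are levels as deposited, read as log2. The table does not name its log base, and its values reach 18.91, so each fold below assumes base 2. The background of an array is the 95th percentile of its 612 negative-control probe sets, which lay between 7.19 and 7.80. A level at or under it is called not above background. A difference against such a level is given as "at least", measured from the higher background of the arrays compared. Counts of genes higher or lower by 1 or more use differences as deposited, so a counted gene can have a bound under 1. Array medians lay between 6.44 and 6.68. Of 15 T cell markers measured, 5 to 7 stood above background on each array, among them IL2RA on all 8, while CD3D, CD3E, CD3G and CD2 were on none, and CD4 was above background only on the 4 MT-2 arrays. Some T cell genes also differed on the MT-1 arrays where germline genes were high. Of the 15, 2 were lower by 1 or more with OR21 and 2 with both agents. Of all probe sets past a filter on low values, 3.32% and 8.82% were. GATA3 differed by 0.00 and 0.06 there. In MT-1 the costimulatory receptor CD28 differed from untreated cells by -1.38 with OR21 and -4.08 with both agents, the kinase ZAP70 by -1.17 and -0.97, and the chemokine receptor CCR4 by -0.90 and -1.60. In MT-2 the surface receptor CD5 was higher by 1.58 with both agents. The part of these differences in the germline results was not tested. Of 11 markers of B, myeloid, NK and erythroid cells, 0 to 2 stood above background on each array.

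The bases before the start sites are shown first, because the agents act on DNA and histone methylation. The RefSeq promoter table (GRCh38.p14) held 9 start sites for 5 of the 6 genes. The sequences below are the 250 bases before a start site, 5′ to 3′ on the strand of the gene, with each CG dinucleotide in capitals. DAZL is given by its outermost start (chr3:16605424-16605673, minus strand), MAEL by both starts (chr1:166975332-166975581 and chr1:166989030-166989279, plus strand), BRDT by its outermost start (chr1:91949121-91949370, plus strand) and GTSF1 by its single start (chr12:54473603-54473852, minus strand). DAZL and MAEL are shown because they had the widest differences of the 6 in MT-1, GTSF1 because it alone of the 6 came above background with OR21 in MT-2, and BRDT because it stood above background on all arrays.
DAZL start 1: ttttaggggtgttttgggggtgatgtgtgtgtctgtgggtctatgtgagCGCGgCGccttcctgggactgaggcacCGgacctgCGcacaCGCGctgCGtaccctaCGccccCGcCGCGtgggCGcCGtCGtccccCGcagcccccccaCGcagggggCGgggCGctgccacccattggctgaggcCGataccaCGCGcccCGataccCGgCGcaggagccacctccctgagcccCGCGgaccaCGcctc
MAEL start 1: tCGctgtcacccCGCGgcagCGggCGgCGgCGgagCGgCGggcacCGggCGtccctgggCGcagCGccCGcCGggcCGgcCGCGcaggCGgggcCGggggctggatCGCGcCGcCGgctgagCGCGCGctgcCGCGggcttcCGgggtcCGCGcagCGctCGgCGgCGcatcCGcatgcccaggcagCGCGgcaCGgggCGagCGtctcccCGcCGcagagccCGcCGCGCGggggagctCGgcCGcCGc
MAEL start 2: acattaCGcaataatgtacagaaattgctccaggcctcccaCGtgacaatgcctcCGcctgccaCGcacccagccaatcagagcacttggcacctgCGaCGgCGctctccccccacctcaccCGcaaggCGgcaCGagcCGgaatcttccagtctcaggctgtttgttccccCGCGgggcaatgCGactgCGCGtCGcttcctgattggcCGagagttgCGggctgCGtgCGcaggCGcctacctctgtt
BRDT start 1: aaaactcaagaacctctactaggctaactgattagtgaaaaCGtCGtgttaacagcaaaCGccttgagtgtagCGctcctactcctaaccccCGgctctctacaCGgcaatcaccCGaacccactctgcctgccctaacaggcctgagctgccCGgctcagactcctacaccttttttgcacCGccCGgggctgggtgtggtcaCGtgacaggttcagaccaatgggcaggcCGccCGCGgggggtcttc
GTSF1 start 1: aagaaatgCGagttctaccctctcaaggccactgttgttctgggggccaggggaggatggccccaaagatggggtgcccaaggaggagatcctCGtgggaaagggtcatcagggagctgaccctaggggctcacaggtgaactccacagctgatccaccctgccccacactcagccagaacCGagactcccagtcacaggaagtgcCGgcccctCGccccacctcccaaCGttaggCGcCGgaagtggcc

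The outer DAZL window held 28 CG dinucleotides, more than 84.2% of all 34941 windows of that length in the table, whose median was 11. The inner DAZL window held 23, more than 74.2%. The outer MAEL window held 51, more than 99.9% of windows, and the inner one 22. BRDT had 14 and 19 at its 2 starts, and DMRT1 had 20 and 17. GTSF1 had 8, fewer than any other window of these genes, and its ratio of observed to expected CG was 0.33 against 0.68 to 1.12 in the other 8 windows. The E-box CACGTG, the motif bound by MGA with its partner MAX, occurred in 4 of the 9 windows. It was found at the inner starts of DAZL and MAEL and at both overlapping starts of BRDT, which share the same site. So 3 of the 5 genes had it, and 6.32% of all windows held it. The letters GCGGGA, the core of an E2F site, searched on both strands, occurred in 2 of the 9 windows (the inner starts of DAZL and DMRT1) and in 23.4% of all. A match is a description of the letters and not evidence of binding.

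**Figure D1:**
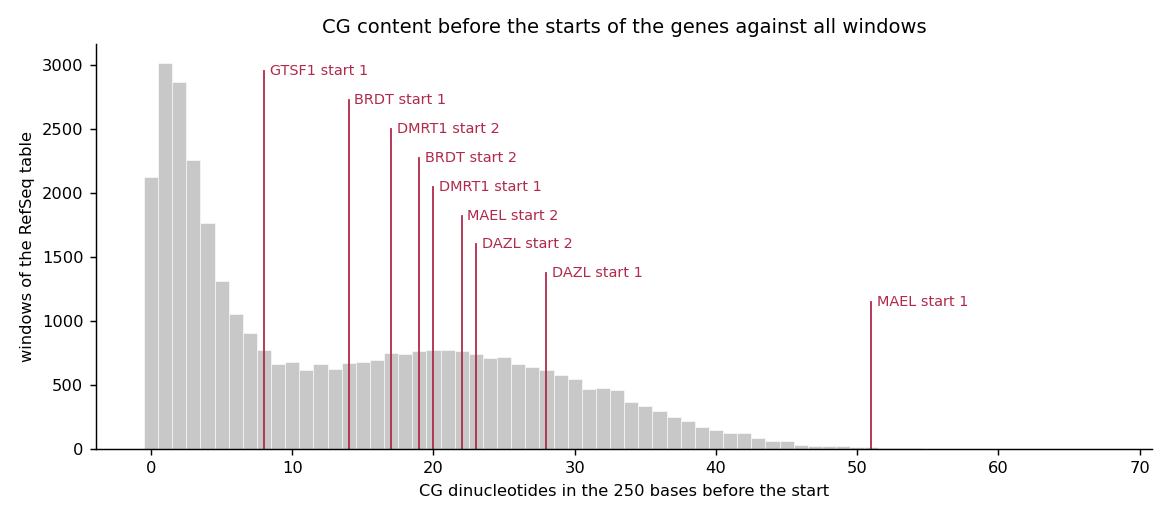
Number of CG dinucleotides in the 250 bases before the start site (x axis) and number of RefSeq windows with that count (y axis, grey bars, 34941 windows). Red lines mark the 9 windows of DAZL, MAEL, BRDT, DMRT1 and GTSF1, from 8 for GTSF1 to 51 for the outer start of MAEL.

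In untreated cells the genes fell into 3 patterns. DAZL (4.55 in MT-1 and 4.85 in MT-2), MAEL (4.98 and 4.38), HORMAD1 (4.88 and 3.80) and DMRT1 (5.19 and 5.49) were not above background in either line. BRDT stood above it in both, at 8.10 in MT-1 against a background of 7.46 and at 8.41 in MT-2 against 7.80. GTSF1 was at 14.65 in MT-1, higher than 98.3% of transcript probe sets on that array, and at 3.59 in MT-2, higher than 3.8%. In bulk RNA, fewer cells with a transcript and less of it per cell cannot be told apart. The GTSF1 difference between the lines was -11.06 as deposited and -6.85 or lower against background. Of the 12942 probe sets past the filter on low values, 24.0% were lower in MT-2 by 1 or more from a level above background and 10.9% were higher and above background there. Of the 6 genes, 1 was lower and 0 were higher.

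**Figure D2:**
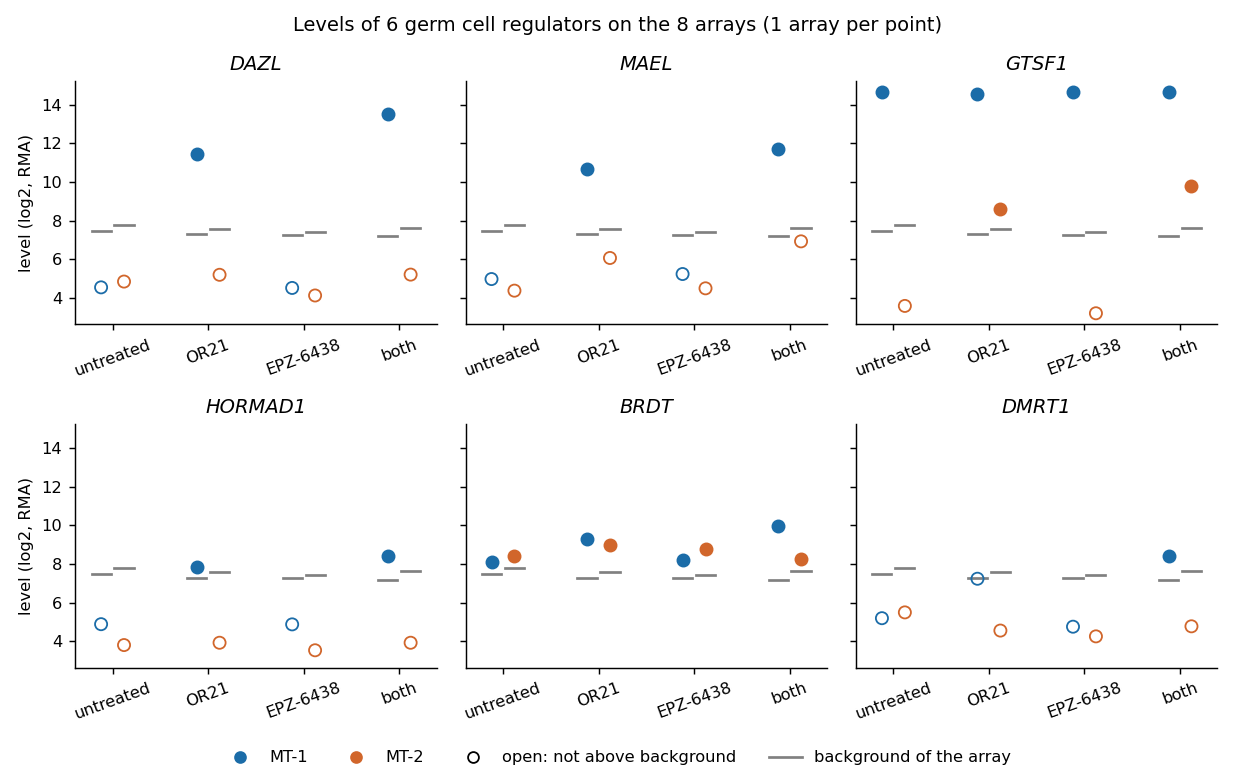
Log2 level (y axis) of each gene on the 8 arrays, by treatment (x axis), 1 array per point, with MT-1 in blue and MT-2 in orange. Grey bars mark the background of each array and open circles lie at or under it. DAZL and MAEL stand above background only on the 2 MT-1 arrays with OR21, GTSF1 on all MT-1 arrays and on the 2 MT-2 arrays with OR21, and BRDT on all 8.

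OR21 alone was followed in MT-1 by signal for DAZL, MAEL and HORMAD1, which had none above background before. DAZL read 4.55 untreated and 11.43 with OR21, a difference of at least 3.97, or at least 15.7-fold. MAEL read 4.98 untreated and 10.68 with OR21, at least 3.22 or 9.31-fold. HORMAD1 reached 7.83 from 4.88, at least 0.37 above a background that it only just passed. BRDT, measured on both arrays, went from 8.10 to 9.30, a difference of 1.20. DMRT1 moved from 5.19 to 7.23 and stayed under the background of its array, 7.29. GTSF1 read 14.65 and 14.53. Thus 4 of the 6 genes were higher by 1 or more as deposited and above background, as were 3.42% of all probe sets past the filter. For HORMAD1 the bound of 0.37 is under 1. With the 99th percentile of the negative controls as background the count was 2 (DAZL and MAEL), to which the share of 3.42% does not apply.

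In MT-2 the gene that appeared with OR21 was GTSF1, the one that MT-1 already carried. It read 3.59 untreated and 8.61 with OR21, a difference of at least 0.81 against background. As deposited the difference was 5.02, most of it below background, where levels have no settled order. BRDT went from 8.41 to 8.98, a difference of 0.57. MAEL read 4.38 and 6.07, DAZL 4.85 and 5.20, HORMAD1 3.80 and 3.92 and DMRT1 5.49 and 4.55, none of them above background. So 1 of the 6 genes was higher by 1 or more as deposited and above background, beside 1.21% of all. Its bound of 0.81 is under 1. That call rests on the background level: with the 99th percentile of the negative controls the count was 0. The lines received different doses, and with 1 array each the difference between their responses was not tested.

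EPZ-6438 alone brought none of the 6 genes above background that was not there before. DAZL read 4.52 in MT-1 and 4.13 in MT-2, MAEL 5.24 and 4.50, HORMAD1 4.87 and 3.53, and DMRT1 4.75 and 4.25, none above background. GTSF1 stayed at 14.65 in MT-1 and at 3.21 in MT-2, where it was not above background. BRDT differed from untreated cells by 0.12 (MT-1) and 0.35 (MT-2), above background throughout. DMRT1 in MT-2 differed by -1.23 as deposited, with both levels under background. In each line 0 of 6 were higher by 1 or more and above background, beside 0.58% of all probe sets past the filter in each.

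With both agents the 5 genes other than GTSF1 were higher in MT-1. DAZL reached 13.51, higher than 96.5% of transcript probe sets on its array and at least 6.05 (66.2-fold) above untreated cells. MAEL reached 11.69, at least 4.23 or 18.8-fold higher. HORMAD1 reached 8.40 (at least 0.94) and DMRT1 8.39 (at least 0.93), which made this the single array of the 8 with DMRT1 above background. BRDT reached 9.98, a difference of 1.89. GTSF1 was at 14.64. These 5 of 6 higher by 1 or more as deposited and above background stand beside 8.9% of all probe sets. The bounds of HORMAD1 and DMRT1 against background are under 1. With the 99th percentile as background the count was 3 (DAZL, MAEL and BRDT), to which the share of 8.9% does not apply.

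In MT-2 both agents brought GTSF1 to 9.79, at least 1.98 or 3.96-fold above untreated cells. MAEL read 6.93 against a background of 7.64, after 4.38 untreated. DAZL read 5.21, HORMAD1 3.92 and DMRT1 4.77, not above background. BRDT was at 8.27, a difference of -0.15 from untreated MT-2 cells. The count was 1 of 6, beside 3.69% of all.

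**Figure D3:**
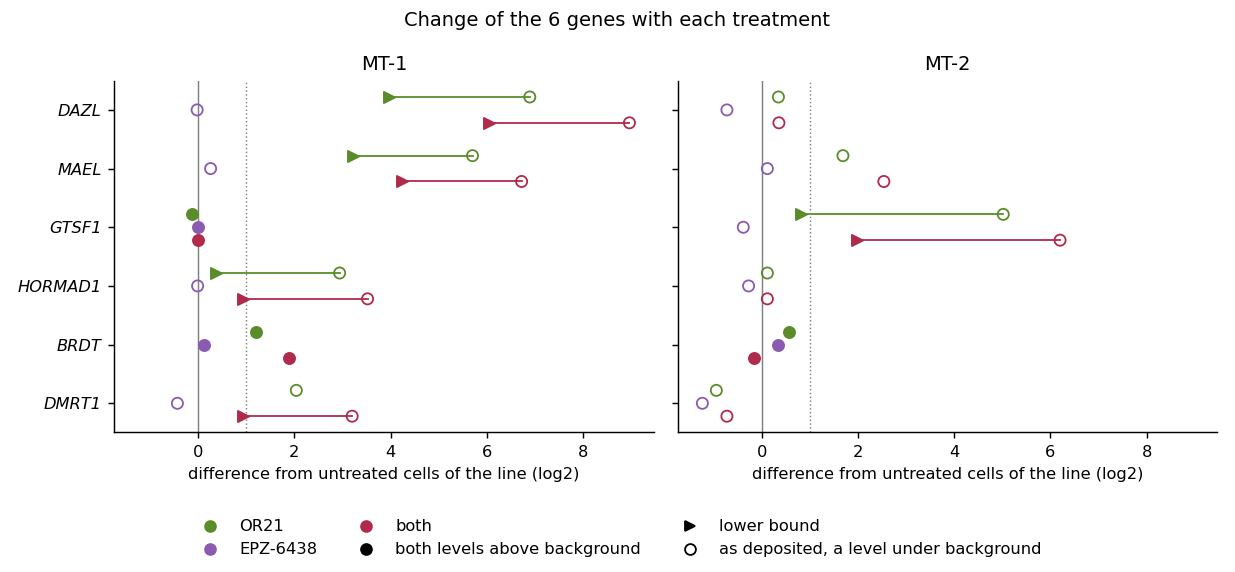
Difference from the untreated cells of the same line (x axis, log2) for each gene (rows) with OR21 (green), EPZ-6438 (purple) and both (red), MT-1 left and MT-2 right. Filled circles have both levels above background, triangles are lower bounds against background, open circles are the differences as deposited where a level lay under background, and the dotted line marks 1. DAZL with both agents in MT-1 has a lower bound of 6.05, and GTSF1 in MT-2 one of 1.98.

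What EPZ-6438 added to OR21 could be measured where both arrays stood above background. In MT-1 the array with both agents was above the OR21 array by 2.07 for DAZL (4.21-fold), 1.01 for MAEL, 0.69 for BRDT, 0.58 for HORMAD1 and 0.11 for GTSF1, and by at least 1.09 for DMRT1. Thus 3 of 6 (DAZL, MAEL and DMRT1) were higher by 1 or more, beside 4.71% of all probe sets. Median centring of the arrays put the MAEL difference at 0.94, under that mark. In MT-2 GTSF1 was higher by 1.18 and BRDT was at -0.72, and 1 of 6 passed the mark beside 1.8% of all. The excess of the combination over the sum of the single agents needs 4 arrays above background, which held for BRDT in both lines and GTSF1 in MT-1. For BRDT it was 0.56 in MT-1, against -1.06 in MT-2, with untreated levels only 0.64 and 0.61 above background. For GTSF1 in MT-1 it was 0.11.

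Across lines, a limma model with terms for line and treatment used all 8 arrays and kept 3 residual degrees of freedom. Its spread is that between the responses of the lines at their different doses. It called 0 of 12942 probe sets (0.0%) with an adjusted p under 0.05 for OR21, for EPZ-6438, for the combination, for the combination against OR21 and for the excess. At an unadjusted p under 0.05 it counted 1079, 285, 2489, 917 and 223 of them. MAEL had the lowest adjusted p of the 6 genes. Its limma difference with both agents was 4.63 (SE 1.16, adjusted p = 0.178), higher as deposited in both lines, although in MT-2 under background. With OR21 it was 3.69 (SE 1.16, adjusted p = 0.57). For DAZL the limma difference with both agents was 4.66 (SE 2.11, adjusted p = 0.287) and for GTSF1 3.09 (SE 1.69, adjusted p = 0.352), each moving mainly in 1 line. HORMAD1 was at 1.82 (SE 0.88, adjusted p = 0.306), DMRT1 at 1.24 (SE 0.92, adjusted p = 0.472) and BRDT at 0.87 (SE 0.53, adjusted p = 0.394) in the same limma comparison. With EPZ-6438 the 6 limma differences lay between -0.83 and 0.23, with adjusted p = 1 for each. Without the MT-2 array of both agents, limma called 740 probe sets for the combination, BRDT among them (1.82, adjusted p = 0.0441), while MAEL had adjusted p = 0.0509 and DAZL 0.0728. That fit rests on the MT-1 array alone for the combination.

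The genes passed the filter in different ways. All 6 reached the table median of 6.573 on some array, but on the untreated arrays alone only BRDT and GTSF1 did. DAZL, MAEL, HORMAD1 and DMRT1 thus entered the fit through arrays on which they were high, and no share over genes that passed is read as support.

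Other germline genes were described by lists, apart from the 6. Of 91 genes measured in 4 lists (piRNA pathway, germ cell specification, meiosis, spermatid chromatin), 27 stood above background on at least 1 array. In MT-1, 8 (8.79%) were higher by 1 or more and above background with OR21, and 13 (14.3%) with both agents, where all probe sets past the filter gave 3.42% and 8.9%; the 91 were not filtered on level. In MT-2 the count was 0 with OR21 and 0 with both, beside 1.21% and 3.69% of all probe sets past the filter. These counts use differences as deposited, and several of the MT-1 genes counted had a bound against background under 1. The median change of the 91 was 0.10 with OR21 and 0.04 with both agents in MT-1, beside -0.06 and -0.05 over all probe sets past the filter, but only 27 of the 91 were above background on any array, so these medians rest mostly on levels without signal. In MT-2 the medians were 0.09 and -0.10, beside -0.06 and -0.02.

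In the piRNA list (22 measured), 1 gene was higher with OR21 and 3 with both agents in MT-1. Of all probe sets past the filter, 3.42% and 8.9% were. GPAT2, a mitochondrial acyltransferase homologue needed for piRNA production, was higher by at least 0.33 with OR21 and 0.80 with both. TDRD1, a tudor protein that binds PIWI proteins, was higher by at least 0.29 with both. HENMT1, the methyltransferase that protects piRNA ends, was already at 10.73 in untreated MT-1 and at 4.04 in MT-2, a contrast between lines like that of GTSF1, but it read 3.97 with OR21 and 3.92 with both agents in MT-2. PLD6, an outer mitochondrial membrane enzyme of piRNA maturation, differed by -1.40 with both agents in MT-1. The largest falls in the other germline lists were small: -0.35 for TAF4B with both agents in MT-1, -0.52 for PSMC3IP with OR21 in MT-2 and -0.59 for TBPL1 with OR21 in MT-1. The germ cell helicase DDX4 and the PIWI protein PIWIL1 were above background on none of the 8 arrays.

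Among 29 meiotic genes, 3 were higher in MT-1 with OR21 and 5 with both agents, beside 3.42% and 8.9% of all probe sets. TEX11, which supports crossovers, was higher by at least 1.35 with both, and the chromosome axis proteins SYCP3 and SYCP2 by at least 1.16 and 1.03. Among 21 specification genes the helix-loop-helix factor SOHLH2 was higher by at least 1.81 with OR21 and 1.30 with both in MT-1. The pluripotency factor ZFP42 was higher by at least 0.40 with both in MT-1, and SALL4 by at least 0.77 with OR21 in MT-2, where the difference as deposited, 0.94, was under the mark of 1. Among 19 spermatid and testis genes CTCFL, the germline paralogue of CTCF, was higher by at least 2.65 with both agents in MT-1, the testis linker histone H1-6 by at least 1.74, and the testis histone H2BC1 by 1.07 with OR21. Of 11 markers of gonadal supporting cells 0 or 1 stood above background on each array. GATA4, a transcription factor of many tissues, was at 11.82 in untreated MT-2 and higher by 1.30 with both agents.

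**Figure D4:**
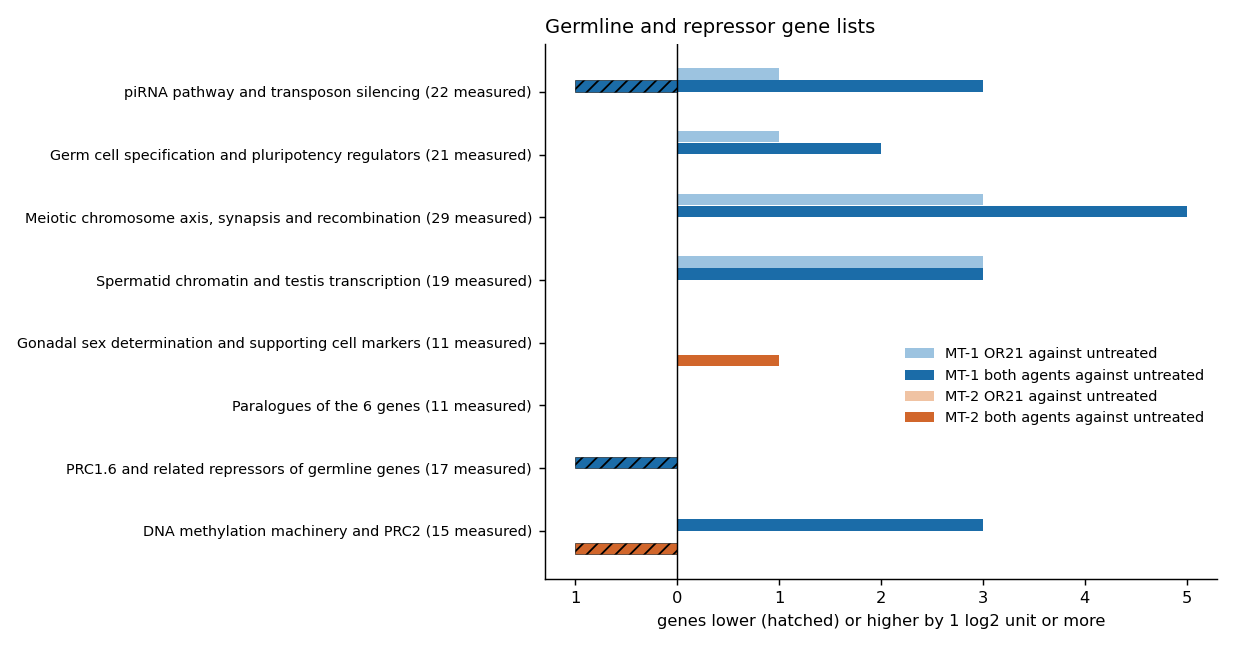
Number of genes (x axis) higher (right) or lower (left, hatched) by 1 log2 unit or more and above background, for 8 gene lists (rows, with the number measured), with OR21 and with both agents in MT-1 (blue) and MT-2 (orange). The 4 germline lists (91 genes measured) have 13 genes higher in MT-1 with both agents and 0 in MT-2, counted on differences as deposited. Several of the 13 have a bound against background under 1. Of all probe sets past the filter, 8.9% and 3.69% were higher.

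Of the 11 measured paralogues of the 6 genes, 2 stood above background. These were BRD2 and BRD3, the broadly expressed relatives of BRDT. BRD2 differed by 0.43 with both agents in MT-1, and BRD3 by -0.79 with OR21 in MT-2. HORMAD2, GTSF1L, BOLL (a relative of DAZL), DMRT2 and DMRT3 were above background on none of the 8 arrays. Of 17 measured members of PRC1.6 and related repressors, 16 or 17 were above background on each array. MGA stood at 9.46 in untreated MT-1 and 10.06 in untreated MT-2. E2F6 stood at 8.40 in MT-1 and was not above background in untreated MT-2 (7.47). With both agents 1 of 17 was lower by 1 or more in MT-1, the PRC1.6 subunit PCGF6 (-1.27), and 0 in MT-2, where 8.82% and 1.48% of all probe sets past the filter were lower from a level above background. Their median change was -0.28 (MT-1) and -0.32 (MT-2), beside -0.05 and -0.02 over all. DNMT1 and EZH2 stood above background on all 8 arrays. DNMT1, the maintenance methyltransferase, read 12.37 untreated and 12.15 with both agents in MT-1, and 10.58 and 9.71 in MT-2. EZH2 read 13.18 and 13.49 in MT-1 and 12.36 and 12.06 in MT-2. Of 15 genes of DNA methylation and PRC2, 3 were higher with both agents in MT-1, beside 8.9% of all probe sets past the filter. They were the de novo methyltransferase DNMT3B (at least 0.30), TET2, which oxidises methylcytosine (at least 1.20), and EZH1, the paralogue of EZH2 (1.23). UHRF1, which guides DNMT1 to replicated DNA, differed by -1.55 with both agents in MT-2. The part of these levels in the germline results was not tested.

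In MT-1 the measured genes beside the 6 passed the same mark at shares close to or above those of all probe sets. The 2 nearest measured genes on each side, by order in the RefSeq gene table (GRCh38.p14), came to 24, of which 14 stood above background on some array and 10 on none. With OR21 in MT-1, 1 of 24 (4.17%, beside 3.42% of all) was higher by 1 or more and above background (CTSS). Another 1 was lower (TBC1D5, near DAZL, -1.09), with 3.32% of all lower. With both agents in MT-1, 3 (12.5%) were higher and 2 (8.33%) lower, beside 8.9% and 8.82% of all. In MT-2 0 of 24 were in either direction with OR21 or with both. Of all probe sets there, 1.21% and 3.69% were higher, and 1.21% and 1.48% were lower. The nearest neighbours of MAEL, ILDR2 and GPA33, and those of DMRT1, KANK1 and DMRT3, were not above background on the untreated arrays or with OR21 or both agents. CTSS, the lysosomal protease cathepsin S beside HORMAD1, was higher by at least 2.19 with both agents in MT-1, and on the other side GOLPH3L differed by 0.07. Beside BRDT the TGF-beta coreceptor TGFBR3 was higher by 1.78. Beside GTSF1 the integrin chain ITGA5 reached 7.69 in MT-1, at least 0.23 above untreated cells, where GTSF1 itself was at -0.01, and NCKAP1L differed by -0.33 in MT-2, where GTSF1 was higher by at least 1.98. The lower genes were TADA1 near MAEL (-1.26) and OXNAD1 near DAZL (-1.01).

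**Figure D5:**
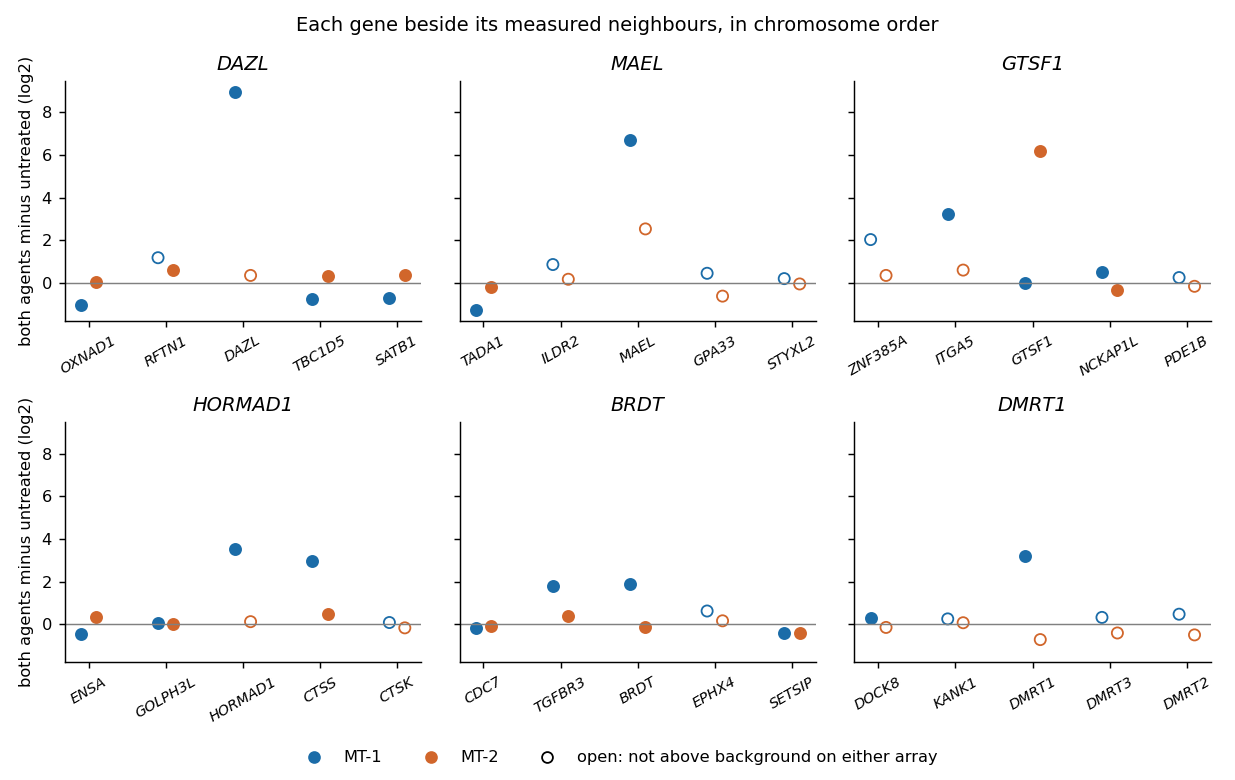
Difference between cells with both agents and untreated cells (y axis, log2, as deposited) for each of the 6 genes and its 2 nearest measured neighbours on each side in chromosome order (x axis), MT-1 in blue and MT-2 in orange, open where neither array was above background. Filled points can rest on 1 level under background, as for DAZL in MT-1. Next to DAZL and MAEL in MT-1 the plotted neighbours lie between -1.26 and 1.19.

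The genes nearest in pattern were found by the root mean square (RMS) difference over the 8 arrays, after levels under background were raised to it and each gene was centred on its own mean, among 9572 named probe sets. Nearest to DAZL were the cancer-testis antigens GAGE13 (RMS 0.17), GAGE10 (0.19) and GAGE2A (0.25), which have near-identical copies and are uncertain as to the single gene. DAZL itself varied about its own mean by an RMS of 2.21. Nearest to MAEL were the cancer-testis antigens CT45A2 (0.01) and SSX5 (0.09), both from families of close copies, and CCNA1 (0.10), the germline cyclin A1, against an RMS of 1.61 for MAEL. Between DAZL and MAEL it was 0.62. DAZL and MAEL were above background on only 2 arrays, both of MT-1, so any gene with like signal there and none elsewhere lies near them. Pearson's r over the 8 arrays, which these genes share, was also taken on raised levels. It was 0.996 to 0.998 for the 3 genes nearest to DAZL, resting mainly on those 2 arrays, and 0.977 to 0.979 for those nearest to GTSF1. GTSF1 was nearest to MEF2C (0.64), OSBPL10 (0.65) and MLC1 (0.70), genes high in MT-1 and not above background in MT-2, and none of them shared its signal in OR21-treated MT-2. For BRDT these were AKIRIN1, KDM7A and STK17A (0.27 each). HORMAD1 (NNAT, GPAT2 and TOM1L1) and DMRT1 (SGK1, MT1E and MAGEB3) varied by an RMS of only 0.33 and 0.34 after raising, so that any gene with like weak signal on the same arrays lies near them.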

How the data were processed

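RNA levels of the 8 groups were measured on 1-colour Affymetrix arrays, 1 per group. The authors deposited log2 values made with RMA, per the submitters' processing notes; the sources used here give no version, annotation release or array build for it, and base 2 is assumed. The table held 24351 entries, of which 2903 were controls. Of 21448 transcript probe sets, 17709 had 1 gene symbol in the platform annotation, 0 had several and 3739 none. The 12942 probe sets whose highest value reached the median of the transcript values, 6.573, were tested with limma 3.58.1 in R 4.3.3 (cell line and treatment as terms, Benjamini-Hochberg adjustment), after the fit was tested on simulated data. Alternatives were other filters, median centring, cyclic loess, eBayes with trend and robust, each array left out, the 90th and 99th percentile as background, levels raised to background, and a threshold of 2 log2 units. Differences within a line have no test. Nothing says whether arrays came from separate cultures. Promoter sequences are from RefSeq (GRCh38.p14), read with Python 3.11.15. A gene was called higher in a line when its level rose by 1 log2 unit or more, as deposited, to a value above background. Arrays give no depth; their number limits the precision.

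Named were the 6 genes; the 3 germline genes per list with the largest change above background and the 1 with the largest fall; paralogues above background; 2 neighbours on each side; and the 3 genes nearest in pattern. Marker, target and silent genes were also named after their values were seen. The genes and lists were chosen with earlier results of these data known.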

Additional observations from a re-analysis of the deposited data

Results flagged for a closer look

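BRDT differed from untreated cells with opposite signs in the lines given both agents, although the MT-2 value lay close to 0. It was above background on all 4 arrays concerned, in MT-1 by 0.64 untreated and 2.79 with both agents. In MT-2 it was above background by 0.61 untreated and 0.63 with both agents. The difference from untreated cells was 1.89 for MT-1 and -0.15 for MT-2. With 1 array per line and treatment this difference between the lines was not tested, and the dose differed between them.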

How the results depend on the processing

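The counts of genes of the 6 higher by 1 or more and above background moved with the background level and the threshold. With the 99th percentile of the negative controls as background, the MT-1 counts were 2 with OR21 (DAZL and MAEL) and 3 with both agents (DAZL, MAEL and BRDT), and the MT-2 OR21 count was 0. At a threshold of 2 log2 units the counts for both agents against OR21 were 1 in MT-1 (DAZL) and 0 in MT-2. In limma, eBayes with trend and robust called 14 probe sets for the combination. Leaving out 1 array at a time, calls lay between 0 and 740 for the combination, 0 and 72 for the combination against OR21, and 0 and 7 for the excess, all from the fit without the MT-2 array of both agents. With levels raised to background, the limma difference of DMRT1 with OR21 was -0.201. DMRT1 was under background on every array of that comparison, so this value holds only the array backgrounds. The median over all probe sets in that fit was also -0.201. Without raising, the limma difference of DMRT1 with OR21 ran from -0.731 to 1.84 over the fits without 1 array. With both agents it ran from -0.085 to 2.57. The reversed values were those without the MT-1 control (-0.731 and -0.042), without MT-1 with OR21 (-0.152) and without MT-1 with both agents (-0.085). The limma difference of BRDT with both agents ran from -0.079 to 1.82. A fit without 1 array rests on the other line for that treatment. Within the lines BRDT differed with both agents by 1.89 (MT-1) and -0.15 (MT-2). The difference between the lines was not tested. Median centring moved the median limma difference over all probe sets for the combination from -0.031 to -0.18. The limma model already compares arrays within a line; the labels number no replicates, so no further block was fitted. Signal over background limits HORMAD1, DMRT1 and BRDT, which passed it by little on some arrays. HORMAD1 passed it by 0.53 with OR21 in MT-1. BRDT passed it by 0.64 in untreated MT-1, by 0.61 in untreated MT-2 and by 0.63 in MT-2 with both agents.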
